A study of Homo sapiens with 16 samples.

Results

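The ZNF genes carry the root symbol ZNF and a number, and most of them encode C2H2 zinc finger proteins. Of 28502 gene symbols listed, 477 had such a name, and the 114 of them with a mean of at least 5 FPKM (fragments scaled by transcript length and library size) over the 6 RNA-seq libraries are described here. The mean FPKM chose these genes, so their level is a description and was not tested. Of the other 363 symbols, 190 had a mean of 1 to 5 FPKM, 86 a mean above 0 and under 1 FPKM, and 87 were listed at 0 in all 6 libraries. Symbols with identical values in every library were counted as 1 locus, which gave 108 ZNF loci among 8455 loci of at least 5 FPKM and 11845 loci of at least 1 FPKM.

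A C2H2 finger folds around a zinc ion and reads a few bases of DNA, and arrays of such fingers give these proteins their sequence preference. Many ZNF proteins also carry a KRAB domain, which recruits the corepressor TRIM28 and, through SETDB1, the repressive H3K9 methylation mark, often on transposable elements. Other ZNF proteins are known to act on RNA, ribosomes or the mitotic spindle. Many ZNF genes lie in tandem arrays of related copies, above all on chromosome 19.

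The cells were HCT116, an established human colorectal carcinoma line. They had been transfected with a small interfering RNA (siRNA) against EZH1 (siEZH1), an siRNA against UXT (siUXT) or a preparation labelled NC, and each transfection was paired with tumour necrosis factor (TNF) or phosphate-buffered saline (PBS). This gave 6 conditions with 1 poly(A) RNA library each, so there was no replicate of any condition, and neither the meaning of NC nor the dose and duration of TNF is given in the labels used here. Another 10 chromatin samples were not analysed here. EZH1 is a Polycomb enzyme that methylates lysine 27 of histone H3, and UXT is a prefoldin-like protein that has been linked to NF-kB.

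The libraries summed to between 617998 and 649481 FPKM, and read depth relative to the NC PBS library lay between 0.719 and 1.02 where it could be read from the smallest values. EZH1 was at 4.14 FPKM with TNF and 4.05 FPKM with PBS after siEZH1, against 5.12 and 5.45 FPKM after NC, ratios of 0.809 and 0.742. UXT was at 24.6 FPKM with TNF and 27.7 FPKM with PBS after siUXT, against 59.6 and 62.2 FPKM after NC, ratios of 0.412 and 0.445. The siUXT PBS library stood apart, with 890 loci at least 2-fold from the median of the other libraries, where the remaining 5 libraries had 90 to 143 such loci. Of 10 colorectal epithelial markers 7 had a mean of at least 1 FPKM, led by KRT8 at 919 FPKM, and the list summed to 1688 to 2469 FPKM, with 1 marker at 0. None of 6 blood markers reached 1 FPKM (sums of 0.161 to 0.850 FPKM, 4 of them at 0), and none of 4 endothelial markers did (0.0943 to 0.257 FPKM, 1 at 0). Of 6 fibroblast markers 1 did (COL1A1, 6.96 FPKM; sums of 5.88 to 8.64 FPKM, 2 at 0). In bulk RNA, fewer cells of a kind and less RNA per cell cannot be told apart.

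Most of the selected ZNF genes were of modest abundance. The median of their mean levels was 8.54 FPKM, against 17.1 FPKM over all loci of at least 5 FPKM; 62 loci lay between 5 and 10 FPKM, 32 between 10 and 20 FPKM, and 14 at 20 FPKM or more. ZNF207, which encodes the spindle assembly protein BuGZ and shares its values with the symbol MIR632, was the most abundant. It was at 109.9 FPKM with TNF and 100.4 FPKM with PBS after siEZH1, at 98.1 and 89.8 FPKM after siUXT, and at 90.1 and 87.2 FPKM after NC. ZNF664, a locus that also carries FAM101A and the readthrough symbol ZNF664-FAM101A, followed, at 74.7 FPKM with TNF and 70.5 FPKM with PBS after siEZH1, at 56.0 and 41.7 FPKM after siUXT, and at 47.9 and 49.7 FPKM after NC. ZNF593, whose yeast counterpart Bud20 takes part in export of the large ribosomal subunit, was at 31.1 FPKM with TNF and 29.9 FPKM with PBS after siEZH1, at 35.3 and 42.5 FPKM after siUXT, and at 39.7 and 42.4 FPKM after NC. These leading genes differed in direction: both siEZH1 libraries were above both NC libraries for ZNF207 and ZNF664 and below them for ZNF593. ZNF512, whose values are shared with GPN1, averaged 35.6 FPKM over the 6 libraries and ZNF146, an unusual protein made almost wholly of zinc fingers, averaged 33.0 FPKM.

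**Figure D1:**
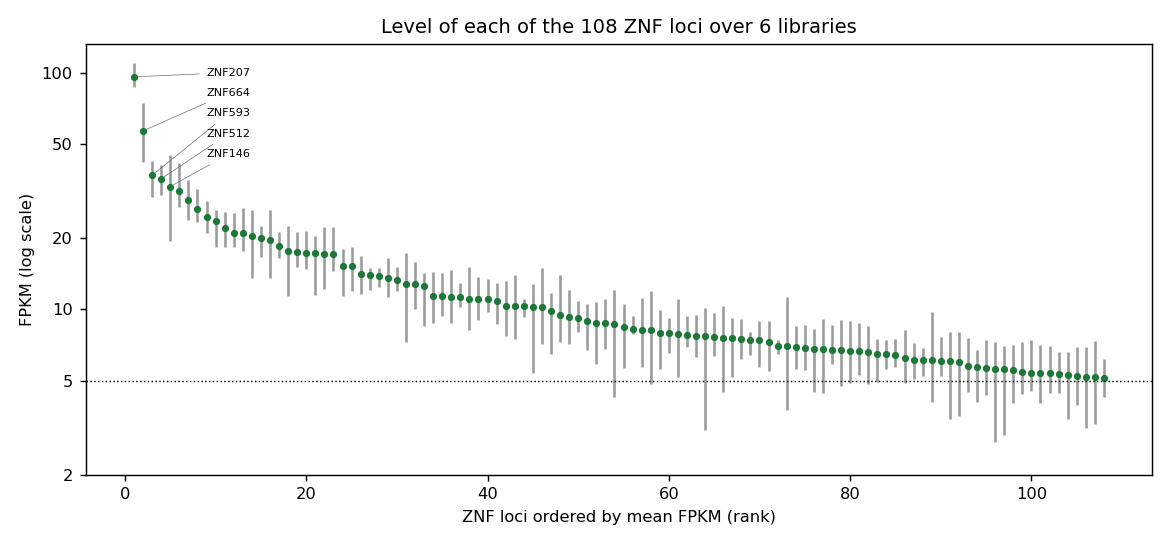
Points give the mean FPKM of each of the 108 ZNF loci over the 6 libraries and grey lines the range from the lowest to the highest library, on a log scale and ordered by mean. Only 14 loci reach 20 FPKM, and 31 loci dip below the dotted line at 5 FPKM in at least 1 library.

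At the lower edge of the selection, ZNF408, ZNF197 and ZNF778 had means of 5.18, 5.17 and 5.11 FPKM, and just below it ZNF839, ZNF771 and ZNF761 had means of 4.97, 4.97 and 4.92 FPKM. All 6 libraries were at 5 FPKM or more for 77 of the 108 loci. The ratio of the highest to the lowest library had a median of 1.63 over the loci, and it was 2 or more in 18 loci (16.7%), against 22.5% of all loci of at least 5 FPKM. The siUXT PBS library was the highest for 34 loci and the lowest for 28, and the siEZH1 PBS library was the highest for 24 and the lowest for 28, so the extremes fell in both directions in the same libraries.

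Chromosome 19 held 239 of the 477 ZNF symbols (50.1%) but 32 of the 114 well-expressed ones (28.1%). Only 13.4% of its ZNF symbols reached a mean of 5 FPKM, whereas 12 of 20 on chromosome 1 and 11 of 30 on chromosome 16 did. Shares were also low on chromosome 9 (1 of 12) and chromosome 3 (3 of 18). All 114 symbols matched a protein-coding gene in RefSeq, 1 of them through an older symbol (ZNF259, now ZPR1). Of the 108 loci, 22 could not be assigned to 1 gene, since they share all their values with further symbols. Among these, ZNF134 with ZNF211, ZNF670 with ZNF695, ZNF747 with ZNF768, and ZNF551 with ZNF586, ZNF587 and ZNF776 are 4 loci that hold 10 of the selected symbols.

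The promoter sequences of the ZNF genes were searched on both strands, in the 250 bases before and 50 bases after each RefSeq gene start (build GRCh38.p14), for 99 of the 114 symbols. The letters CCGGAAG, a core bound by ETS factors, occurred in 43 of the 99 (43.4%). They occurred in 40.0% of 300 promoters of the other ZNF symbols, in 21.5% of 7204 promoters of symbols with a mean of at least 5 FPKM, and in 10.7% of all 27305 promoters. The GC box letters GGGCGG were present in 68.7% of the selected ZNF promoters and 73.8% of the promoters of symbols of at least 5 FPKM, and the TATA box letters TATAAA in 4.04% and 4.80%. The NF-kB-like letters GGGANTTTC were found in 1 of the 99, or 1.01%, and in 1.10% of promoters of symbols of at least 5 FPKM. A match is a description of these letters and not of factor binding, which was not measured here. Windows with the ETS core from 5 genes described below show how the letters sit in different surroundings, with each copy of CCGGAAG or its reverse complement in capitals, written 5′ to 3′ on the strand of the gene. They lie at chr11:3379160-3379206 (minus strand) for ZNF195, chr12:6689542-6689589 (minus) for ZNF384, chr19:8832333-8832379 (minus) for ZNF558, chr19:58408482-58408528 (plus) for ZNF584 and chr19:56121434-56121480 (minus) for ZNF787.
ZNF195: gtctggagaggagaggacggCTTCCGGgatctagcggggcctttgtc
ZNF384: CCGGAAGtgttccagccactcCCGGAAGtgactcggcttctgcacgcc
ZNF558: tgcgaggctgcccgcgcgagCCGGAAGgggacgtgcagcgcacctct
ZNF584: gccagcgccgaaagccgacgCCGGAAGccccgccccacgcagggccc
ZNF787: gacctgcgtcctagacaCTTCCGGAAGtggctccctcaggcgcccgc
In the ZNF787 window a forward and a reverse copy overlap to form 1 palindrome. For siEZH1 minus NC under TNF, the median over 33 loci with the core was 0.12 and over 43 loci without it 0.05 on the log2(FPKM + 1) scale, and under PBS the medians were -0.02 and 0.05; these were not tested against each other.

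Within the ZNF genes, a neighbouring trio on chromosome 19 shared both promoter letters and the direction of its siEZH1 values. ZNF121, ZNF561 and ZNF562 follow each other among the selected genes in RefSeq order, and their upstream sequences hold an identical run of 15 bases, AGCGGAAGTGACGTC, 58, 31 and 15 bases before the gene start. The run appeared in 5 of 27305 promoters, the others being COPS3 and ZNF561-AS1, the antisense neighbour of ZNF561. The windows below put the shared run in capitals and lie at chr19:9584528-9584582, chr19:9621233-9621283 and chr19:9675101-9675135, all on the minus strand.
ZNF121: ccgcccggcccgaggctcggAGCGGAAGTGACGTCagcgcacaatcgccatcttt
ZNF561: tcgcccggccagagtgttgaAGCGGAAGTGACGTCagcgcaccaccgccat
ZNF562: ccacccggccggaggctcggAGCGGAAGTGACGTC
The related letters TGACGTCA, the cyclic AMP response element, stood in 9 of 99 selected ZNF promoters (9.09%), in 2.33% of the other ZNF promoters and in 3.58% of promoters of symbols of at least 5 FPKM. The 9 include ZNF121, ZNF561 and ZNF562, whose shared run prompted the search for this element, so the share is not independent of them. The search for the run and for this element was made after the values of the trio had been seen. ZNF121 was at 7.23 FPKM with TNF and 8.05 FPKM with PBS after siEZH1, against 4.40 and 4.72 FPKM after NC. ZNF561 was at 9.24 FPKM with TNF and 11.2 FPKM with PBS after siEZH1, against 6.79 and 8.17 FPKM after NC, and ZNF562 was at 8.94 and 7.67 FPKM against 7.17 and 6.96 FPKM. On the log2(FPKM + 1) scale the siEZH1 minus NC differences were 0.61 with TNF and 0.66 with PBS for ZNF121, 0.39 and 0.41 for ZNF561, and 0.28 and 0.12 for ZNF562. Values above NC under both treatments were common, in 50 of the 108 ZNF loci, and a link between the shared letters and this direction was not tested. After siUXT the trio was above NC with TNF, by 0.71, 0.24 and 0.06, and below it with PBS, at -0.34, -0.45 and -0.29.

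With siEZH1, the ZNF genes split into a higher and a lower set that were mostly the same with TNF and with PBS, in libraries that the 2 differences do not share. The difference from NC had the same sign under both treatments in 92 of 108 loci (85.2%), 50 above and 42 below NC, close to the 82.7% of all loci of at least 5 FPKM. Across the 108 loci, Spearman's rho between the differences with TNF and with PBS was 0.82, against 0.79 over all loci of at least 5 FPKM; loci are not independent replicates. The medians were 0.05 with TNF and 0.05 with PBS on the log2 scale, against 0.01 and -0.00 over all loci of at least 5 FPKM. With TNF, 10 loci (9.26%) were at least 1.5-fold higher on the log2(FPKM + 1) scale, which is used for every such count unless another is named, and 5 (4.63%) at least 1.5-fold lower, against a background of 3.03% and 6.14% of loci of at least 5 FPKM. With PBS, 3 loci (2.78%) were at least 1.5-fold higher and 7 (6.48%) lower, against 1.55% and 5.24%. The mean that chose the loci includes the siEZH1 libraries, so loci near 5 FPKM could enter through high values there. Among the 10, ZNF32 and ZNF397 were under 5 FPKM in both NC libraries. Their NC values were 3.44 and 4.36 FPKM with TNF and 4.04 and 4.89 FPKM with PBS. The part of this choice in the counts was not tested.

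**Figure D2:**
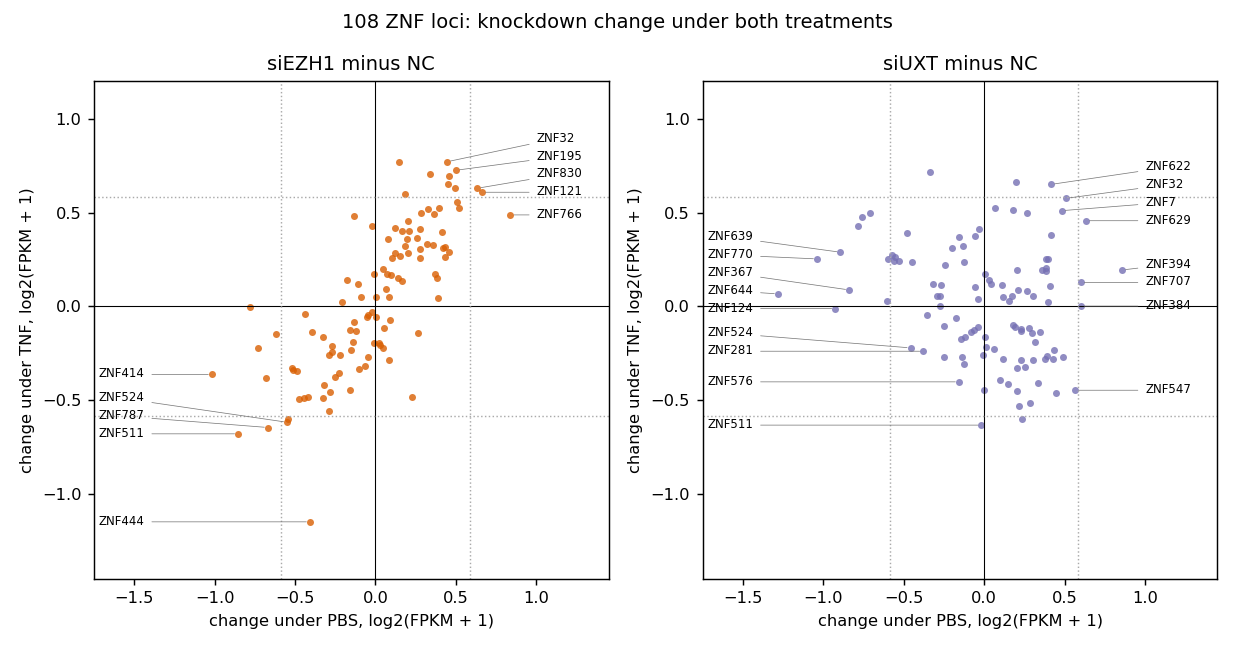
Each point is 1 of 108 ZNF loci, with its knockdown minus NC difference under PBS on the horizontal axis and under TNF on the vertical axis, both on the log2(FPKM + 1) scale; dotted lines mark 1.5-fold. The siEZH1 points run along the diagonal, with 92 of 108 of the same sign, while only 48 of 108 siUXT points have the same sign.

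ZNF830, a spliceosome-associated protein whose mouse counterpart Omcg1 is needed in the early embryo, was among the highest with siEZH1. It was at 8.02 FPKM with TNF and 8.53 FPKM with PBS after siEZH1, against 4.83 and 5.14 FPKM after NC, and the siUXT libraries lay between, at 7.31 and 5.97 FPKM. The log2 difference was 0.63 (SE 0.20) over both treatments. On the log2(FPKM + 1) scale ZNF830 and ZNF121 were the 2 loci at least 1.5-fold higher under both treatments, which 0.449% of all loci of at least 5 FPKM were. By the plain ratio of FPKM values there were 4, with ZNF766 and ZNF558 added, against 0.852% of all loci of at least 5 FPKM. ZNF558 was at 4.49 FPKM with TNF and 4.22 FPKM with PBS after NC, and the mean that chose it includes the siEZH1 libraries.

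ZNF766 was at 6.08 FPKM with TNF and 9.77 FPKM with PBS after siEZH1, against 4.05 and 5.02 FPKM after NC, a log2 difference of 0.66 (SE 0.25). ZNF195 was at 10.4 FPKM with TNF and 9.84 FPKM with PBS after siEZH1, against 5.87 and 6.66 FPKM after NC, a log2 difference of 0.61 (SE 0.26). ZNF32 was at 6.58 FPKM with TNF and 5.86 FPKM with PBS after siEZH1, against 3.44 and 4.04 FPKM after NC, a log2 difference of 0.61 (SE 0.20). In each of these genes both siEZH1 libraries were above both NC libraries. For ZNF32 both siUXT libraries were above NC as well, at 5.62 FPKM with TNF and 6.17 FPKM with PBS.

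The lower set was led by ZNF444, which encodes a finger protein with a SCAN domain, a module for pairing with other finger proteins. Its values were 4.84 FPKM with TNF and 6.37 FPKM with PBS after siEZH1, against 11.9 and 8.77 FPKM after NC, a log2 difference of -0.78 (SE 0.24). ZNF511, a locus that also carries the symbol PRAP1, was at 16.04 FPKM with TNF and 13.5 FPKM with PBS after siEZH1, against 26.3 and 25.3 FPKM after NC, a log2 difference of -0.77 (SE 0.24). It was also low in 1 siUXT library, at 16.6 FPKM with TNF, but not in the other, at 24.9 FPKM with PBS. ZNF787 was at 14.0 FPKM with TNF and 11.3 FPKM with PBS after siEZH1, against 22.5 and 18.6 FPKM after NC, a log2 difference of -0.66 (SE 0.22). ZNF511 and ZNF787 were the 2 loci at least 1.5-fold lower under both treatments on the log2(FPKM + 1) scale, a class that holds 2.77% of all loci of at least 5 FPKM. By the plain ratio of FPKM values ZNF524 was added and there were 3, against 3.52%.

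For ZNF414 the values were 5.05 FPKM with TNF and 2.94 FPKM with PBS after siEZH1, against 6.78 and 6.97 FPKM after NC, a log2 difference of -0.69 (SE 0.25). ZNF524 was at 4.15 FPKM with TNF and 3.96 FPKM with PBS after siEZH1, against 6.90 and 6.25 FPKM after NC, a log2 difference of -0.58 (SE 0.20). ZNF787 and ZNF444 are adjacent among the selected genes on chromosome 19, and both were lower after siEZH1 with either treatment. ZNF576 and ZNF428, another adjacent pair there, had log2 differences of -0.48 and -0.42 with TNF, and of -0.42 and -0.32 with PBS. Adjacent genes did not always go together: ZNF124 and ZNF496 on chromosome 1 differed from NC by 0.45 and -0.45 with TNF and by 0.20 and -0.28 with PBS.

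**Figure D3:**
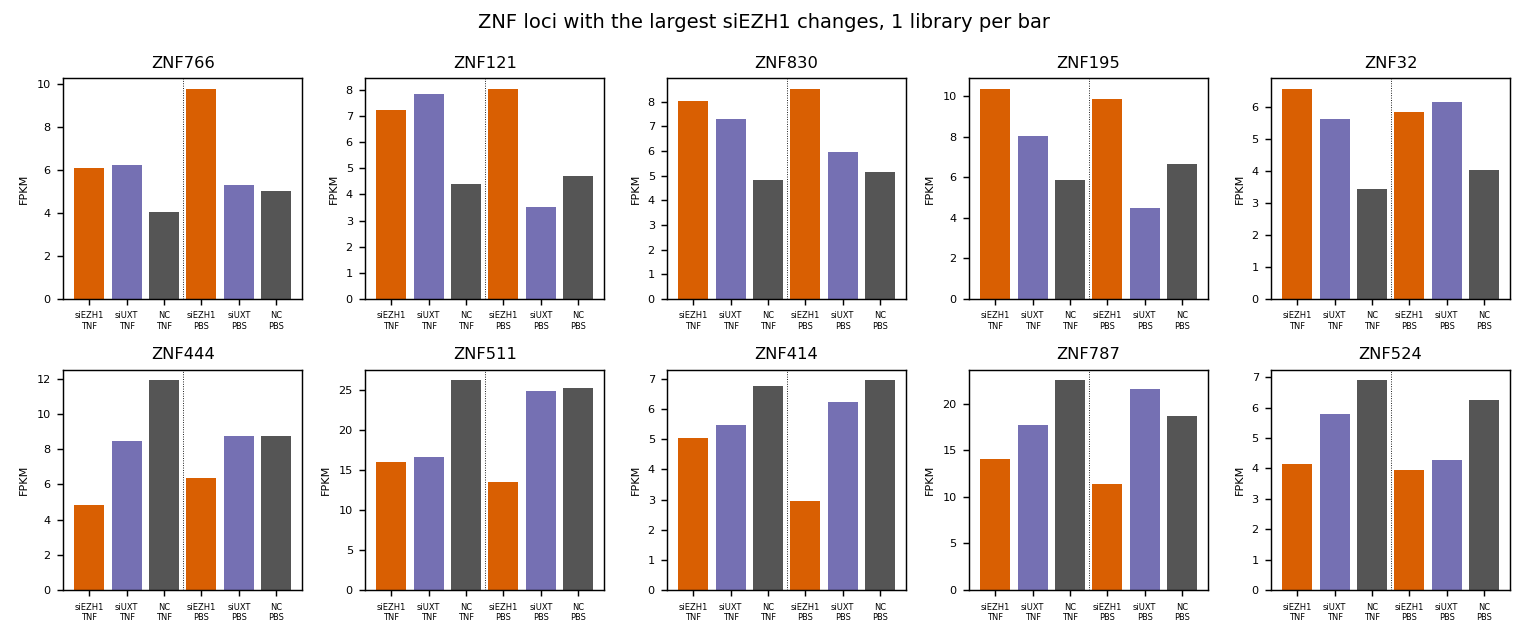
Bars give the FPKM of each library for the 5 ZNF loci with the highest (top) and the 5 with the lowest (bottom) siEZH1 minus NC differences of consistent sign, 1 library per bar, with TNF left and PBS right of the dotted line. In ZNF830 the siEZH1 bars stand at 8.02 and 8.53 FPKM over NC bars of 4.83 and 5.14 FPKM, and in ZNF787 at 14.0 and 11.3 FPKM under NC bars of 22.5 and 18.6 FPKM.

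In the limma model over all 6 libraries, no ZNF locus passed a Benjamini-Hochberg adjusted p of 0.05 for siEZH1 against NC, where 0.0169% of the 11845 loci did. The lowest adjusted p among the ZNF loci was 0.602 in limma with Benjamini-Hochberg adjustment, and 12 of 108 had an unadjusted p under 0.05, against 972 of 11845 loci. The spread in this model is the departure from equal differences under both treatments and not a spread between replicates. It includes the disparity between the siUXT libraries. Without the siUXT PBS library, 36 ZNF loci passed, 19 higher and 17 lower, against a background of 11.8% and 14.7% of all loci. In both directions together this is 33.3% of the ZNF loci, against 26.4% of all loci and 34.2% of loci of at least 5 FPKM. The same 36 passed without the siUXT TNF library instead, against a background of 11.3% higher and 14.8% lower, or 26.1% of all loci and 33.8% of loci of at least 5 FPKM. Either fit rests on 1 residual degree of freedom per locus, from the NC and siEZH1 libraries, and ZNF121 and the 9 genes given above with an SE were among those that passed, with limma adjusted p (Benjamini-Hochberg) between 0.00772 for ZNF511 and 0.0359 for ZNF414 in the fit without siUXT PBS.

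The members of the 36 described here have known roles in unlike processes, and the roles of the 36 as a set were not examined. Among the higher ones were ZNF207, ZNF830, the promoter and loop-anchor activator ZNF143, and ZNF638, which takes part in silencing of unintegrated retroviral DNA. ZNF143 was at 7.50 FPKM with TNF and 7.29 FPKM with PBS after siEZH1, against 4.91 and 5.31 FPKM after NC, and ZNF638 at 14.8 and 17.4 FPKM against 10.2 and 13.3 FPKM. Among the lower ones were ZNF593, the E3 ubiquitin ligase ZNF598, which marks collided ribosomes, and ZNF335, a subunit of histone H3K4 methyltransferase complexes. ZNF598 was at 15.5 FPKM with TNF and 11.5 FPKM with PBS after siEZH1, against 20.4 and 19.1 FPKM after NC. ZNF335 was at 6.38 FPKM with TNF and 5.61 FPKM with PBS after siEZH1, against 9.36 and 7.997 FPKM after NC. ZNF143, ZNF638, ZNF598 and ZNF335 were chosen after their values were seen.

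The siEZH1 difference of the ZNF genes was weakly related to gene length. Over the 86 loci listed under 1 symbol, Spearman's rho between the span of the gene and the siEZH1 difference was 0.31 with TNF and 0.26 with PBS, near the 0.30 and 0.28 found over 7516 loci of at least 5 FPKM. The 29 loci of shortest span, with a median of 8218 bases, had a median difference of -0.21 with TNF and -0.23 with PBS, and 21 and 18 of the 29 lay below NC. The 28 loci of longest span, with a median of 49474 bases, had medians of 0.30 with TNF and 0.10 with PBS. For the siUXT difference rho was 0.16 with TNF and -0.25 with PBS, against 0.20 and -0.23 over all 7516 loci. The part of gene length, or of anything that goes with it in library preparation, in these differences was not tested.

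With siUXT, the ZNF genes gave different pictures with TNF and with PBS. The siUXT minus NC difference had the same sign in 48 of 108 loci (44.4%), against 38.5% of all loci of at least 5 FPKM, and rho between the treatments was -0.20, against -0.21. The median difference was 0.04 with TNF and 0.06 with PBS, against 0.01 and 0.07. With PBS, 4 loci (3.70%) were at least 1.5-fold higher and 10 (9.26%) at least 1.5-fold lower, against a background of 3.49% and 16.7%. With TNF, 3 loci were at least 1.5-fold higher and 2 lower, against 2.28% and 2.73%. None of the 108 passed 1.5-fold in the same direction under both treatments on the log2(FPKM + 1) scale, where 0.213% of loci of at least 5 FPKM were higher and 0.177% lower. By the plain ratio of FPKM values 1 was higher, ZNF32, and 0 lower, against 0.355% and 0.237%.

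The 10 loci lower with siUXT and PBS came from the library that stood apart, and their siUXT TNF values were near or above NC. ZNF644, a partner of the H3K9 methyltransferases G9a and GLP, was at 7.38 FPKM with TNF and 3.09 FPKM with PBS after siUXT, against 6.997 and 8.94 FPKM after NC. ZNF770 was at 8.83 FPKM with TNF and 4.26 FPKM with PBS after siUXT, against 7.25 and 9.82 FPKM after NC. ZNF639 was at 11.2 FPKM with TNF and 5.40 FPKM with PBS after siUXT, against 9.01 and 10.9 FPKM after NC. In each the siUXT PBS library was the lowest of the 6 and the siUXT TNF library exceeded NC TNF. ZNF124 was at 5.01 FPKM with TNF and 2.76 FPKM with PBS after siUXT, against 5.06 and 6.14 FPKM after NC, and ZNF367 at 5.86 and 3.77 FPKM against 5.45 and 7.54 FPKM. ZNF638, the SUMO ligase ZNF451, ZNF146, ZNF706 and the ZNF670 and ZNF695 locus made up the rest, with siUXT minus NC differences of -0.78, -0.76, -0.71, -0.61 and -0.60 with PBS and of 0.43, 0.47, 0.50, 0.03 and 0.25 with TNF.

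On the higher side with PBS, ZNF394, a KRAB and SCAN protein whose locus is shared with another symbol, was at 11.9 FPKM with TNF and 14.9 FPKM with PBS after siUXT, against 10.3 and 7.80 FPKM after NC. ZNF384, a factor known as a fusion partner in acute leukaemia, was at 30.0 FPKM with TNF and 41.4 FPKM with PBS after siUXT, against 29.9 and 26.96 FPKM after NC. ZNF707 was at 5.94 FPKM with TNF and 7.42 FPKM with PBS after siUXT, against 5.35 and 4.56 FPKM after NC. All 3 had their highest value in the siUXT PBS library. ZNF547, a locus shared with TRAPPC2P1, was at 7.86 FPKM with TNF and 10.6 FPKM with PBS after siUXT, against 11.1 and 6.80 FPKM after NC, so that the order of the groups was opposite under the treatments.

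**Figure D4:**
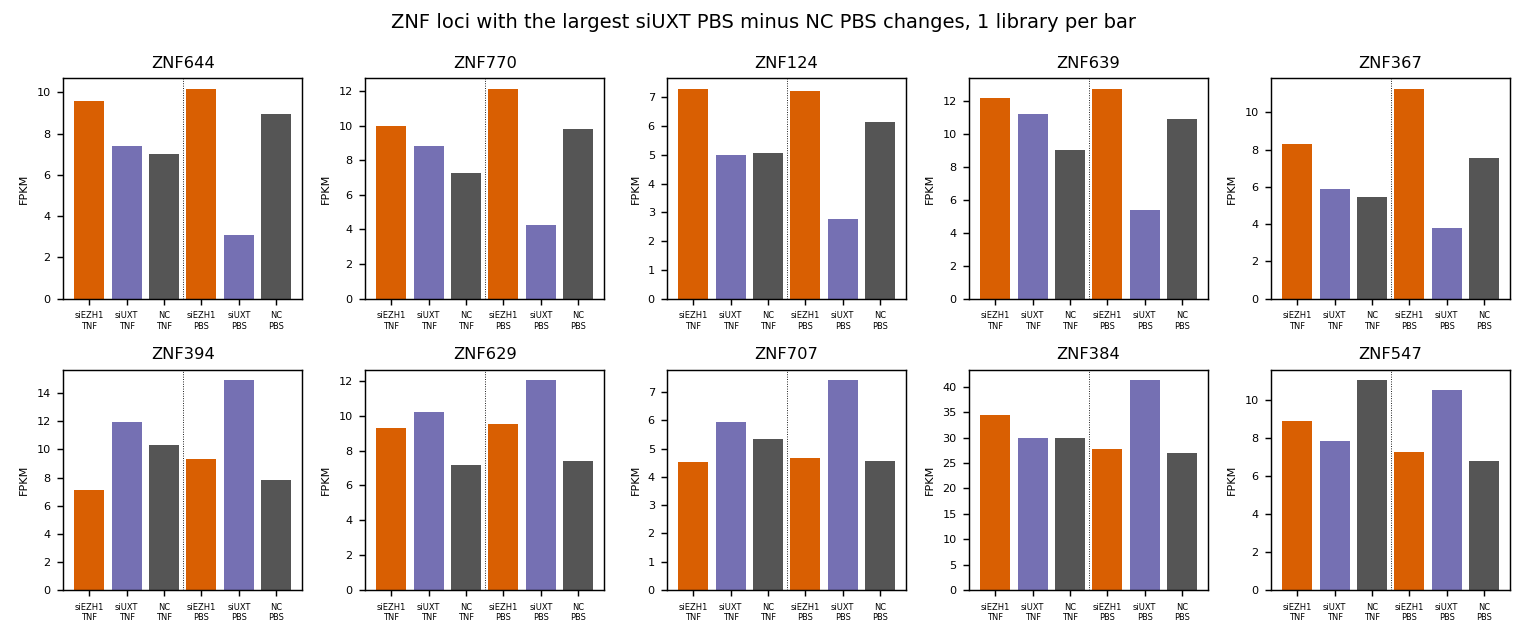
Bars give the FPKM of each library for the 5 ZNF loci with the lowest (top) and the 5 with the highest (bottom) siUXT PBS minus NC PBS differences, 1 library per bar, with TNF left and PBS right of the dotted line. In ZNF644 the siUXT bar is 7.38 FPKM with TNF and 3.09 FPKM with PBS.

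Of the 48 loci with the same sign of the siUXT difference under both treatments, 30 were above and 18 below NC. ZNF629 was at 10.2 FPKM with TNF and 12.1 FPKM with PBS after siUXT, against 7.17 and 7.42 FPKM after NC, a log2 difference of 0.54 (SE 0.19). ZNF622, the human counterpart of the yeast ribosome maturation factor Rei1, was at 19.8 FPKM with TNF and 22.2 FPKM with PBS after siUXT, against 12.2 and 16.4 FPKM after NC, a log2 difference of 0.53 (SE 0.22). ZNF7 was at 12.7 FPKM with TNF and 12.9 FPKM with PBS after siUXT, against 8.64 and 8.93 FPKM after NC, a log2 difference of 0.50 (SE 0.19). In these genes both siUXT libraries exceeded both NC libraries. The lowest of those below NC with both treatments were ZNF124 at -0.47, ZNF524 at -0.34 and ZNF511 at -0.32 on the log2 scale, where ZNF124 differed by only -0.01 with TNF and ZNF511 by only -0.02 with PBS. Next were ZNF281, a factor of stem cell and epithelial-mesenchymal programmes, at 5.25 FPKM with TNF and 5.10 FPKM with PBS after siUXT, against 6.37 and 6.93 FPKM after NC, and ZNF576, a locus shared with SRRM5, at 6.62 and 7.78 FPKM against 9.07 and 8.79 FPKM. Their log2 differences were -0.31 (SE 0.20) and -0.28 (SE 0.19), within 2 standard errors. The differences of ZNF124 (SE 0.27), ZNF524 (SE 0.20) and ZNF511 (SE 0.24) were within 2 standard errors as well.

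No ZNF locus passed for siUXT against NC in limma over all 6 libraries at a Benjamini-Hochberg adjusted p of 0.05, where 0.0422% of all loci did; the lowest adjusted p was 0.908 and 4 of 108 (3.70%) had an unadjusted p under 0.05, against 3.65% of all loci. None passed either without the siUXT PBS library, where 1.09% of all loci did. In that fit 31 of the 108 (28.7%) had an unadjusted p under 0.05, against 23.4% of all loci and 28.7% of loci of at least 5 FPKM. Without the siUXT TNF library, so that the siUXT value came from the PBS library alone, 8 were higher and 12 lower, against 12% and 18.4% of all loci. These 20 are 18.5% of the ZNF loci, against 30.4% of all loci and 37.2% of loci of at least 5 FPKM. ZNF644 had the lowest limma adjusted p of the 20, 0.00325 (Benjamini-Hochberg), with a log2 difference of -1.22 (SE 0.15).

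Few ZNF genes differed between TNF and PBS in the NC and siEZH1 cells. In NC cells 1 locus was at least 1.5-fold higher with TNF, against 2.89% of loci of at least 5 FPKM, and 0 were lower, against 1.04%; the median was -0.02. The 1 locus was ZNF547, at 11.1 FPKM with TNF against 6.80 FPKM with PBS. In siEZH1 cells 2 loci were higher, against 2.89%, and 1 was lower, against 0.532%, with a median of 0.03. In siUXT cells 11 loci (10.2%) were higher with TNF, against 17.6%, and 2 were lower, against 2.52%, with a median of -0.12; 9 of the 11 are loci that were at least 1.5-fold lower in the siUXT PBS library, which both counts use.

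ZNF217, an oncogene of the chromosome 20q amplicon whose protein binds corepressors, had the largest positive TNF difference among loci of 1 sign in every transfection. It was at 9.05 FPKM with TNF against 6.75 FPKM with PBS after siEZH1, at 6.62 against 4.73 FPKM after siUXT, and at 6.85 against 6.33 FPKM after NC, a log2 difference of 0.30 (SE 0.16). ZNF584 was at 5.90 FPKM with TNF against 6.44 FPKM with PBS after siEZH1, at 6.17 against 8.72 FPKM after siUXT, and at 5.26 against 7.43 FPKM after NC, a log2 difference of -0.33. ZNF503, a developmental repressor, was at 8.72 FPKM with TNF against 9.95 FPKM with PBS after siEZH1, at 9.89 against 13.2 FPKM after siUXT, and at 11.3 against 14.6 FPKM after NC, a log2 difference of -0.30. TNF was above PBS in all 3 transfections for ZNF217 and below it for ZNF584 and ZNF503. Such agreement in sign was seen in 27 of 108 loci, 11 above and 16 below, against 18.8% of loci of at least 5 FPKM. None of the 108 passed for TNF against PBS in limma with Benjamini-Hochberg adjustment, against 0.414% of all loci; the lowest adjusted p was 0.999 and 0 of 108 had an unadjusted p under 0.05, against 3.96% of all loci. None passed without siUXT PBS either, against 2.77% of all loci. In that fit 17 of the 108 (15.7%) had an unadjusted p under 0.05, against 23.1% of all loci and 27.3% of loci of at least 5 FPKM.

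**Figure D5:**
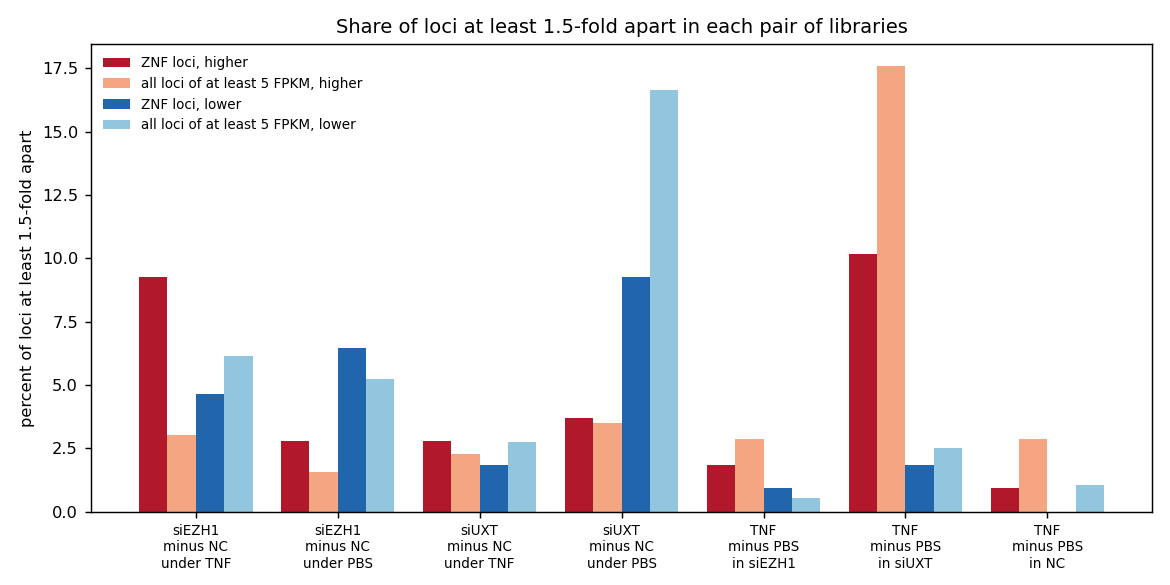
Bars give the percent of loci at least 1.5-fold higher or lower on the log2(FPKM + 1) scale in each of 7 pairs of libraries, for the 108 ZNF loci and for all 8455 loci of at least 5 FPKM. With siEZH1 and TNF 9.26% of ZNF loci were higher against 3.03% of all loci, and in siUXT cells 10.2% were higher with TNF against 17.6%.

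The less abundant ZNF genes gave another picture from the selected ones. Over 179 ZNF loci with a mean of 1 to 5 FPKM, the median siEZH1 minus NC difference was 0.23 with TNF and 0.15 with PBS, against 0.05 and 0.05 for the 108. Of the 179, 139 (77.7%) and 126 (70.4%) were above NC, against 52.3% and 50.5% of all loci of at least 1 FPKM. The share over all loci of 1 to 5 FPKM was not computed. Medians of the 179 loci with siUXT were 0.16 with TNF and -0.12 with PBS, and their median TNF minus PBS difference in NC cells was -0.15. Over 24 loci of other C2H2 families (ZBTB, ZSCAN, ZKSCAN and ZFP symbols) of at least 5 FPKM, the siEZH1 medians were -0.03 with TNF and 0.06 with PBS. These differences between the groups were not tested.

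Beside the ZNF genes, a list of 31 KRAB corepressor and silencing genes was taken, of which 29 were tested. TRIM28, the KRAB corepressor, was at 269.5 FPKM with TNF and 249.7 FPKM with PBS after siEZH1, at 266.6 and 329.2 FPKM after siUXT, and at 347.3 and 300.4 FPKM after NC. SETDB1, the methyltransferase it recruits, was at 13.4 FPKM with TNF and 12.6 FPKM with PBS after siEZH1, at 12.1 and 14.1 FPKM after siUXT, and at 10.3 and 10.1 FPKM after NC. TRIM28 was thus below NC and SETDB1 above NC in both siEZH1 libraries. None of the 29 passed for siEZH1, siUXT or TNF in limma over all 6 libraries. Without siUXT PBS 9 were higher and 2 lower with siEZH1, against a background of 11.8% and 14.7% of all loci. In both directions together the background was 26.4% of all loci and 34.2% of loci of at least 5 FPKM. The higher ones were SETDB1, CBX1, CBX3, HDAC1, HDAC2, RBBP4, RBBP7, TRIM33 and FAM208A, and the lower ones TRIM28 and MBD3. MBD3, a subunit of the NuRD remodelling complex, was at 26.2 FPKM with TNF and 21.9 FPKM with PBS after siEZH1, against 47.6 and 43.1 FPKM after NC. CBX1 was at 124.3 and 136.6 FPKM against 85.9 and 110.8 FPKM, and ATF7IP at 6.23 and 6.29 FPKM against 3.61 and 5.81 FPKM. Over the 29, the median siEZH1 minus NC difference was 0.18 with TNF and 0.11 with PBS. With siUXT and PBS 7 of the 29 were at least 1.5-fold lower and 0 higher, against the 16.7% and 3.49% of loci of at least 5 FPKM. The largest difference was that of CBX3, which encodes the heterochromatin protein HP1 gamma, at 126.0 FPKM with TNF and 29.3 FPKM with PBS after siUXT, against 102.4 and 125.6 FPKM after NC. SMARCAD1 was at 9.73 FPKM with TNF and 1.95 FPKM with PBS after siUXT, against 7.87 and 9.64 FPKM after NC, and ATRX at 4.48 and 1.03 FPKM against 3.11 and 4.12 FPKM. In CBX3, SMARCAD1 and ATRX, as in ZNF644 and ZNF770, the siUXT PBS library was low and the siUXT TNF library above NC TNF. CBX5, which encodes HP1 alpha, was instead low in both siUXT libraries, at 15.4 FPKM with TNF and 13.8 FPKM with PBS, against 24.3 and 23.9 FPKM after NC. With siUXT and TNF 2 of the 29 were at least 1.5-fold lower, CBX5 and MBD3, and 0 higher, against 2.73% and 2.28% of loci of at least 5 FPKM.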

How the data were processed

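RNA-seq of 6 HCT116 samples was used, with 1 library per condition. Expression was deposited by the authors as FPKM per gene symbol. Steps named per the submitters' processing notes are FastQC, cutadapt, TopHat2, Bowtie and SICER, with genome build hg19. The FPKM program, annotation and strand setting count among items not given in the sources used here, so overlapping, antisense and near-identical ZNF genes are uncertain.

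From the deposited FPKM, log2(FPKM + 1) was computed, a scale that understates the change of low genes. Read counts are unknown; relative depth was read from steps of low values (under 0.4 FPKM, tolerance 2%). Nothing says that libraries came from separate cultures. With 1 library per condition, the p-values do not measure a spread between replicates. They rest on how far the differences between transfections vary with treatment in these samples. A TNF response that depends on the knockdown therefore counts as spread.

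Each knockdown and TNF was tested with limma 3.58.1 in R 4.3.3 (additive model of transfection and treatment, eBayes with trend, 2 residual degrees of freedom, prior 4.42), with Benjamini-Hochberg adjustment over the 11845 loci whose mean reached 1 FPKM and a threshold of 0.05. The model was tested on simulated data that were additive, with large TNF changes and no outlying library. That test therefore does not cover a library such as siUXT PBS or differences as small as those of the ZNF genes. Single pairs of libraries have no test and are given as differences and counts past 1.5-fold. Python 3.11.15 with pandas 2.3.3 and scipy 1.17.1 did the rest. The alternatives were another pseudocount, 2 other filters, size factors, eBayes without trend, leaving out each library and, chosen after seeing the data, the plain ratio of FPKM values.

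The members and lists were chosen with earlier results of these data known. Named were the 5 genes of highest mean, the 5 largest differences in each direction per contrast among those of 1 sign in every pair (or fewer of them), the 5 lowest and 5 highest siUXT PBS minus NC PBS differences and the genes next to 5 FPKM. Further genes are described for their role or position, chosen after their values were seen. Promoters and gene spans come from RefSeq (GRCh38.p14); no coordinates were converted. A planned grouping by protein domains was not made here.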

Additional observations from a re-analysis of the deposited data

Results flagged for a closer look

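Among the ZNF loci named for their mean or the size of a difference, 6 had siUXT minus NC differences of opposite sign under the treatments. The differences were at least 1 log2 unit apart. Loci outside that list were not screened, and ZNF638 (0.43 with TNF, -0.78 with PBS) and ZNF451 (0.47 and -0.76) among them also meet this. With 1 library per condition the contrast between treatments was not tested. The TNF value exceeded the PBS value by 1.35 for ZNF644 (0.07 with TNF, -1.28 with PBS), by 1.29 for ZNF770 (0.25 and -1.04), by 1.21 for ZNF146 (0.50 and -0.71), by 1.18 for ZNF639 (0.29 and -0.89) and by 1.05 for ZNF121 (0.71 and -0.34). For ZNF547 the contrast was -1.01 (-0.45 with TNF, 0.57 with PBS). Each of these contrasts uses both siUXT and both NC libraries. The siUXT PBS library among them had 890 loci at least 2-fold from the median of the other libraries. For ZNF547 the lowest and highest values were instead those of NC PBS (6.80 FPKM) and NC TNF (11.1 FPKM). The part of any library in these values was not tested.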

How the results depend on the processing

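No block by replicate number was fitted, since each condition had 1 library and the labels carry no replicate numbers. The additive model itself compares the treatments within each transfection and the transfections within each treatment. Of 37 named differences, 30 kept their sign under all 11 alternatives and 18 passed the limma threshold under at least 1. The siUXT differences of 7 genes changed sign when 1 library was left out. Over those fits ZNF367 ranged from -0.84 to 0.087, ZNF384 from -0.036 to 0.64, ZNF511 from -0.68 to 0.026, ZNF547 from -0.35 to 0.48, ZNF639 from -0.85 to 0.24, ZNF644 from -1.22 to 0.0075 and ZNF770 from -1.01 to 0.22. The sign changed without siUXT PBS in all but ZNF511, where it changed without siUXT TNF, and also without NC PBS for ZNF547 (-0.28) and ZNF639 (0.041). Over the fits that leave out 1 library, the number of ZNF loci that passed ranged from 0 to 36 for siEZH1 and from 0 to 20 for siUXT, and was 0 for TNF. The 36 came without siUXT PBS or without siUXT TNF, the 20 without siUXT TNF. The median difference of the ZNF loci ranged from 0.017 to 0.051 for siEZH1 and from -0.0039 to 0.071 for siUXT in those fits, and with size factors the siUXT median was -0.036. With size factors the loci at least 1.5-fold higher numbered 1 for siUXT against NC with PBS and 1 for TNF against PBS in siEZH1 cells, and 1 was lower with TNF in siUXT cells. With a pseudocount of 0.1, 6 were higher for siUXT against NC with TNF, 1 was lower with TNF in NC cells and 5 in siUXT cells, and 1 was higher with siUXT under both treatments. By the plain ratio of FPKM values, a setting chosen after seeing the data, 6 were higher for siUXT against NC with TNF, 1 was lower with TNF in NC cells and 6 in siUXT cells, 4 were higher with siEZH1 and 1 with siUXT under both treatments. The cause of these shifts was not tested. Read counts are unknown, and no condition was replicated, which limits every single-library value here.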
